A study of Homo sapiens with 16 samples.

Results

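Glutamine withdrawal was followed in the PIK3CA WT derivative of DLD1, an established human colorectal carcinoma cell line. The 4 arrays whose titles name DLD1 PIK3CA WT, 2 from cells grown with glutamine and 2 from cells grown without it, were taken out of a series of 16 arrays. The study's question concerned PIK3CA, the gene of the catalytic p110-alpha subunit of phosphoinositide 3-kinase. In the WT derivative the mutant copy had been disrupted, so that only a wild-type copy was left. All 4 cultures were kept for 24 h in DMEM with 10% dialyzed fetal bovine serum, from which small molecules such as free amino acids have been removed, and the labels give no other difference between them than glutamine in the medium. The responses used for comparison are those of the DLD1 Mut derivative, in which the wild-type copy had been disrupted, and of HCT116 WT, the matching derivative of a second colorectal carcinoma line, each with 2 arrays per medium (4 arrays each) under the same conditions. The labels call the samples biological replicates and name 1 derivative per line and genotype, so the spread between arrays does not include the spread between independently made derivatives. No probe set was named for PIK3CA alone, and the genotype could not be read from the arrays.

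Glutamine feeds several branches of metabolism at once: its amide nitrogen is used to make asparagine, purines, pyrimidines and hexosamines, and its carbon enters the tricarboxylic acid cycle through glutamate. Cells that run short of an amino acid accumulate uncharged tRNA, which activates the kinase GCN2; phosphorylation of eIF2-alpha then slows general translation and favours translation of the transcription factor ATF4. ATF4 acts with C/EBP partners on genes for amino acid synthesis, transport and tRNA charging, and on its own feedback regulators. Amino acid supply is also read by the kinase complex mTORC1, which promotes ribosome production and sterol and fatty acid synthesis.

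Expression was read as 1 intensity per probe set on an Affymetrix whole-transcript array, and the log2 of the deposited intensity of the brightest probe set of each gene was used. Of 22395 genes, 15676 with a mean log2 intensity in the upper 70% were tested. On the 4 DLD1 WT arrays the 2 replicates correlated at r = 0.991 with glutamine and r = 0.991 without it across genes, which are not independent replicates. The median difference between replicates was 0.165 and 0.141 on the log2 scale. Colon epithelial markers had summed intensities of 7465 to 8050 with glutamine and 6834 to 6877 without, and of the 11 tested, a shorter set of defining genes than the colon epithelium list described further on, 3 fell and none rose. Among the 12 with a probe set, 3 lay under 10 on all 4 arrays. Markers of fibroblasts summed to 37.3 to 41.5 and 45.5 to 47.7, of leukocytes to 53.5 to 55.5 and 65.1 to 74.2, and of endothelium to 40.7 to 41.4 and 33.8 to 35.3. Of those bright enough to be tested none of 3 fibroblast markers passed, 2 of 4 leukocyte markers rose (1 without the first array with glutamine or the second lacking it) and 1 of 3 endothelial markers fell; their part in the results was not tested. In these bulk samples a loss of cells of one kind and a loss of RNA per cell cannot be told apart.

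Promoters of some genes that rose hold the letters of the composite C/EBP-ATF element through which ATF4 is known to act, and 2 of them are shown here in full because the responses of ASNS and CHAC1 differ in size between the derivatives, as described further on. The stretches are the 250 bases upstream of a RefSeq start site (GRCh38.p14), read 5′ to 3′ on the strand of the gene, with the match to TGATGNAA or its reverse complement in capitals. That of ASNS, asparagine synthetase, lies at chr7:97872409-97872658 on the minus strand, with the match from position -68 to -61, and that of CHAC1, a glutathione-degrading enzyme, lies at chr15:40953221-40953470 on the plus strand, with the match from -209 to -202.
ASNS: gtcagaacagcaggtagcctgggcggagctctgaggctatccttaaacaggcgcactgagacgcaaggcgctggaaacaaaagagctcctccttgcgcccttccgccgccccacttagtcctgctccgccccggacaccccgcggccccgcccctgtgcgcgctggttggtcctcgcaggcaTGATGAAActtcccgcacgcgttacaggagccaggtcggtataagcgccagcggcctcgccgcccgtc
CHAC1: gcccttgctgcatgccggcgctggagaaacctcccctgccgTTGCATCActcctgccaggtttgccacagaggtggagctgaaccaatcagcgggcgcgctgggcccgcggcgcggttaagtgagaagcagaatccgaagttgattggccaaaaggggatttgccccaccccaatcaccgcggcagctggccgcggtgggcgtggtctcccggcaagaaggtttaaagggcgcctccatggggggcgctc
For the transcription factor gene ATF3 (chr1:212565205-212565234, plus strand), the aspartate aminotransferase gene GOT1 (chr10:99430804-99430833, minus strand) and the alanyl-tRNA synthetase gene AARS1 (chr16:70289675-70289704, minus strand), 30 bases around the match are given. GINS2 (chr16:85688967-85688996, minus strand) and LIG1 (chr19:48170440-48170469, minus strand), a replication fork subunit and DNA ligase 1, are shown with a match to the E2F elements TTTCCCGC or TTTGGCGC. ARRDC4 (chr15:97960481-97960510, plus strand), which encodes an arrestin-domain protein, is shown with the E-box CACGTG.
ATF3: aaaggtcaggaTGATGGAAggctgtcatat
GOT1: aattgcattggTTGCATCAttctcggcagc
AARS1: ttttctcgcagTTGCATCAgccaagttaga
GINS2: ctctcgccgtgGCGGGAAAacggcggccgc
LIG1: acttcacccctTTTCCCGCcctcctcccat
ARRDC4: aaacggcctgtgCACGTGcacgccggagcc
Both strands of windows from 250 bases before to 50 bases after each start site were searched, and a gene with several windows counted once. TGATGNAA was found for 4 of 14 genes of ATF4 regulation and feedback, 3 of 11 amino acid synthesis genes, 5 of 19 amino acid transporters and 7 of 16 cytosolic aminoacyl-tRNA synthetases with a window, against 2.96% of 11735 tested genes and 3.62% of all 35116 windows. An E2F element was found for 14 of 29 replication genes and 1 of 23 mitosis genes, against 4.1% of tested genes and 2.27% of windows. The sterol element TCACNCCAC was found for 1 of 17 cholesterol genes, SREBF2, against 1.41% and 1.13%, and the E-box for 3 of 13 genes of the Mondo-MLX and MYC network, against 11.9% and 7.26%. Each motif was counted only in lists chosen for it, over tested members whether or not they changed, so these shares describe and test nothing. A match describes the letters only and is no evidence of binding.

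Withdrawal changed a large part of the measured transcriptome of DLD1 WT cells. Of 15676 tested genes 2202 rose (14%) and 2033 fell (13%), 27% in all, at a Benjamini-Hochberg adjusted p under 0.05 from limma, which pooled the spread over the 8 groups of the series. A change of at least 2-fold was seen in 899 genes (5.73%), 462 of those that rose (2.95%) and 437 of those that fell (2.79%). The 2 arrays without glutamine lay wholly above or below the 2 arrays with it for 62.7% of tested genes, and for every gene called. Where a lack of overlap is given below for a called gene, it therefore adds nothing to the call. The rises were led by NIBAN1, DDIT4, SLC16A4, DDIT3, ULBP1, TXNIP and SESN2, and the falls by SLAMF6, RASSF10, TMT1A, INSIG1, CEMIP, KIT and CFTR. Counts below are of the tested members of each gene list, to be read against 14% higher and 13% lower among all tested genes, whose median log2 change was 0.01. Values after ± are limma's SE, and log2 changes are levels without glutamine minus levels with it. The 36 lists hold 796 symbols, of which 721 were matched to a probe set with that symbol alone and 673 were bright enough to be tested. Of the symbols, 33 are in more than 1 list, and such a gene counts in each list that holds it.

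**Figure D1:**
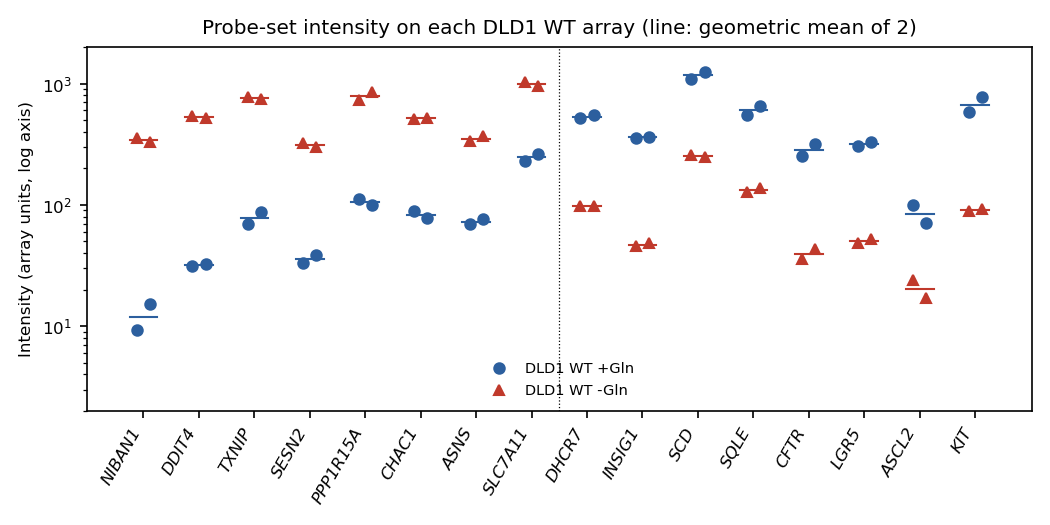
Intensity on a log axis of 8 genes that rose and 8 that fell on each of the 4 DLD1 WT arrays; circles are the 2 arrays with glutamine, triangles the 2 without, and lines geometric means. In each of the 16 genes the 2 media do not overlap; levels of different genes are not comparable because each has its own probe set.

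Genes of the ATF4 branch of the amino acid response rose. Of 16 tested genes for ATF4 regulators and feedback factors 14 rose and none fell, with a median log2 change of 1.77. NIBAN1, a stress-induced regulator of translation, read 9.26 and 15.1 with glutamine and 354 and 332 without. Its log2 change was 4.86 ± 0.23 (adjusted p = 8.88e-07). DDIT4, which encodes the mTORC1 inhibitor REDD1, read 31.1 and 32.4 with glutamine and 536 and 515 without, a log2 change of 4.05 ± 0.13 (adjusted p = 2.23e-07). Both genes were near the lower end of their range on each array with glutamine and high on each array without. SESN2, a leucine sensor that restrains mTORC1, read 33.3 and 38.6 with glutamine and 321 and 300.1 without (log2 change 3.12 ± 0.12). PPP1R15A, the phosphatase subunit GADD34 that dephosphorylates eIF2-alpha, read 112 and 99.99 with glutamine and 728 and 848 without (2.89 ± 0.11). CHAC1 read 88.5 and 77.8 with glutamine and 513 and 522 without (2.64 ± 0.12). These 3 feedback genes showed no overlap between media, and the replicates of each medium lay close together. ATF4 itself read 637 and 594 with glutamine and 1198 and 1252 without (log2 change 0.99 ± 0.10, adjusted p = 5.99e-05), a smaller rise than those of the 5 genes above. ATF3, a stress-induced transcription factor, rose by 2.38, and CEBPG, the gene of a C/EBP partner of ATF4, by 1.11. DDIT3, which encodes CHOP, rose by 3.40 ± 0.33 on its brighter probe set, whereas the other changed by 0.22 at intensities of 2.29 to 3.58. EIF2AK4, the gene of GCN2, and EIF2AK3, the gene of the endoplasmic reticulum kinase PERK, did not pass the test (log2 changes -0.05 ± 0.093 and -0.12 ± 0.15).

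Genes for serine, one-carbon and asparagine synthesis rose, whereas ALDH18A1 of proline synthesis and the cytosolic folate enzymes MTHFD1 and SHMT1 fell. Of 15 tested amino acid synthesis genes 9 rose and 4 fell. ASNS, which transfers the amide nitrogen of glutamine to aspartate, read 68.96 and 75.7 with glutamine and 336 and 368 without (log2 change 2.28 ± 0.11, adjusted p = 8.88e-07). PHGDH, the first enzyme of serine synthesis, read 187 and 157 with glutamine and 565 and 594 without (1.76 ± 0.093). PSAT1, the next enzyme, which takes its nitrogen from glutamate, read 1272 and 1370 with glutamine and 2963 and 2819 without (1.13 ± 0.086). In each of the 3 genes both arrays without glutamine lay above both arrays with it. MTHFD2, the mitochondrial folate dehydrogenase, rose by 1.20 ± 0.086 and SHMT2, the mitochondrial serine hydroxymethyltransferase, by 0.72 ± 0.083. Their cytosolic counterparts MTHFD1 and SHMT1 fell by 0.65 and 0.71. GOT1, the cytosolic aspartate aminotransferase, read 628 and 619 with glutamine and 1515 and 1470 without (1.26 ± 0.08). PCK2, which makes phosphoenolpyruvate in mitochondria, read 37.97 and 32.5 with glutamine and 135 and 132 without (1.93 ± 0.16). ALDH18A1, which starts proline synthesis from glutamate, read 1000 and 1029 with glutamine and 565 and 559 without (-0.85 ± 0.081), the fall with the smallest adjusted p in this list (4.06e-05).

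Amino acid transporters moved in both directions: 10 of 21 tested rose and 4 fell. SLC7A11, the cystine importer that exports glutamate, read 228 and 264 with glutamine and 1030 and 957 without (log2 change 2.02 ± 0.11, adjusted p = 1.67e-06). SLC1A4, a neutral amino acid exchanger, read 313 and 325 with glutamine and 668 and 635 without (1.03 ± 0.11). SLC6A9, a glycine carrier, rose by 1.50 ± 0.16 and SLC7A1, an importer of arginine and lysine, by 1.06 ± 0.14. SLC3A2, the heavy chain shared by several exchangers, rose by 0.61 ± 0.083. SLC1A5, the best-known importer of glutamine, changed less, reading 789 and 854 with glutamine and 1084 and 1069 without (0.39 ± 0.091, adjusted p = 0.00867), a call lost without the first array of either medium (0.0638 with glutamine and 0.0512 lacking it). Among those that fell, SLC7A8, an exchanger of large neutral amino acids, read 220.0 and 259.8 with glutamine and 59.9 and 68.5 without (-1.90 ± 0.16), and SLC7A2, another carrier of cationic amino acids, changed by -1.88 ± 0.26.

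Cytosolic aminoacyl-tRNA synthetases, which load amino acids onto tRNA, rose in 12 of 19 cases and fell in 4, and the mitochondrial enzymes rose in 1 of 15 and fell in 5. The largest rises among the cytosolic enzymes with the smallest adjusted p were SARS1 for serine (1.64 ± 0.10), CARS1 for cysteine (1.36 ± 0.10) and AARS1 for alanine (1.07 ± 0.085). SARS1 read 256 and 214 with glutamine and 740.0 and 717 without, without overlap between media. QARS1, which loads glutamine itself, had a log2 change of 0.01 ± 0.095 and did not pass the test. The genes that fell included KARS1 for lysine (-0.75 ± 0.087) and VARS1 for valine (-0.64 ± 0.08). Without the second array with glutamine, and without the first array lacking it, 3 rather than 5 mitochondrial synthetases fell. LARS2 (-0.76 ± 0.087) fell and TARS2 (0.83 ± 0.11) rose among them.

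Genes of glutamine and glutamate enzymes and of nucleotide synthesis fell more often than they rose. Of 19 tested enzymes of glutamine and glutamate 3 rose and 7 fell, with a median of -0.52, and of 21 tested genes of nucleotide synthesis none rose and 13 fell, with a median of -0.46. GLUL, glutamine synthetase, read 12.01 and 10.3 with glutamine and 8.79 and 9.86 without and did not pass the test (log2 change -0.26 ± 0.21, adjusted p = 0.427). GLUD1, glutamate dehydrogenase, read 29.8 and 25.3 with glutamine and 9.05 and 20.2 without, with the replicates lacking glutamine far apart; its change of -1.02 ± 0.35 missed the threshold (adjusted p = 0.0527) and passed it without the second array lacking glutamine (-1.60, adjusted p = 0.00695). GOT2, the mitochondrial aspartate aminotransferase, read 894 and 962 with glutamine and 479 and 498 without (-0.92 ± 0.085), opposite in direction to GOT1. GFPT1, which uses the amide group to start hexosamine synthesis, rose by 0.58 ± 0.087. In the purine and pyrimidine pathways PAICS read 1494 and 1414 with glutamine and 753 and 794 without (-0.91 ± 0.084) and TYMS, thymidylate synthase, read 1173 and 1172 with glutamine and 652 and 625 without (-0.88 ± 0.093). CTPS1, which uses glutamine to make CTP, read 239.6 and 258 with glutamine and 112 and 124 without (-1.08 ± 0.14). PRPS2, which makes the ribose donor of both pathways, changed by -0.86 ± 0.091 and IMPDH1, an enzyme of GTP synthesis, by -0.93 ± 0.12. RRM2, a subunit of ribonucleotide reductase, was at 860.3 and 856 with glutamine and 881 and 849 without and did not pass the test.

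Sterol synthesis genes fell almost throughout the pathway: 15 of 19 tested fell and none rose, with a median of -1.0. INSIG1, which holds the sterol sensor in the endoplasmic reticulum and is itself a target of SREBP2, read 356 and 364 with glutamine and 45.6 and 47.99 without (log2 change -2.94 ± 0.17, adjusted p = 2.86e-06). DHCR7, the last enzyme of one branch of the pathway, read 518 and 547 with glutamine and 97.8 and 97.8 without (-2.44 ± 0.095). SQLE, squalene epoxidase, read 547 and 658 with glutamine and 128 and 138 without (-2.17 ± 0.11). In all 3 both arrays without glutamine lay far below both arrays with it. MSMO1 changed by -1.71 ± 0.12, ACAT2 by -1.54 ± 0.13 and LSS by -1.69 ± 0.14. SREBF2, the gene of the transcription factor SREBP2, changed by -0.79 ± 0.099. Of 17 fatty acid synthesis genes 8 fell and 1 rose; 5 fell without the second array with glutamine or either array lacking it, and 2 rose without the former. SCD, which introduces the double bond of oleate, read 1099 and 1243 with glutamine and 258 and 246 without (-2.22 ± 0.098), and FASN, fatty acid synthase, read 219.7 and 243 with glutamine and 83.99 and 83.6 without (-1.46 ± 0.097). SREBF1 changed by -0.61 ± 0.13, and MID1IP1, an activator of acetyl-CoA carboxylase, rose by 0.60 ± 0.10.

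Replication genes fell by small amounts, and mitosis genes had no common direction. Of 36 replication genes 26 fell and 2 rose, with a median of -0.38. The count that fell was 15 without the first array with glutamine, 17 without the first array lacking it and 12 without the second, and none rose with any 1 of the 4 arrays left out. GINS2 read 218 and 209 with glutamine and 83.97 and 82.5 without (log2 change -1.36 ± 0.12, adjusted p = 3.01e-05). LIG1 read 199.8 and 176 with glutamine and 77.4 and 79.4 without (-1.26 ± 0.092). DSCC1, which helps load the sliding clamp, read 192 and 203 with glutamine and 83.8 and 83.3 without (-1.24 ± 0.082), and CCNE1, the cyclin that starts S phase, changed by -1.21 ± 0.10. MCM4 and MCM7, subunits of the helicase, changed by -0.68 ± 0.09 and -0.79 ± 0.094. Of 28 mitosis genes 6 fell and 2 rose, with a median of 0.00, and 1 rose without the first array with glutamine or either lacking it. CDC20 (-0.79 ± 0.10) and CCNB1, cyclin B1 (-0.54 ± 0.092), fell, whereas CDK1, the mitotic kinase, was at 208 and 188 with glutamine and 222 and 227 without (0.18 ± 0.13, adjusted p = 0.362). Among 18 G1 regulators 4 rose and 2 fell; with any 1 of the 4 arrays left out 1 rose, and none fell except 1 without the second array with glutamine. CDKN2B, an inhibitor of the G1 kinases, read 10.6 and 11.2 with glutamine and 18.9 and 29.6 without (1.12 ± 0.18). CDKN1A, which encodes p21, changed by 0.50 ± 0.15 (adjusted p = 0.0306), a call lost without any 1 of the 4 arrays (0.0527 to 0.162).

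**Figure D2:**
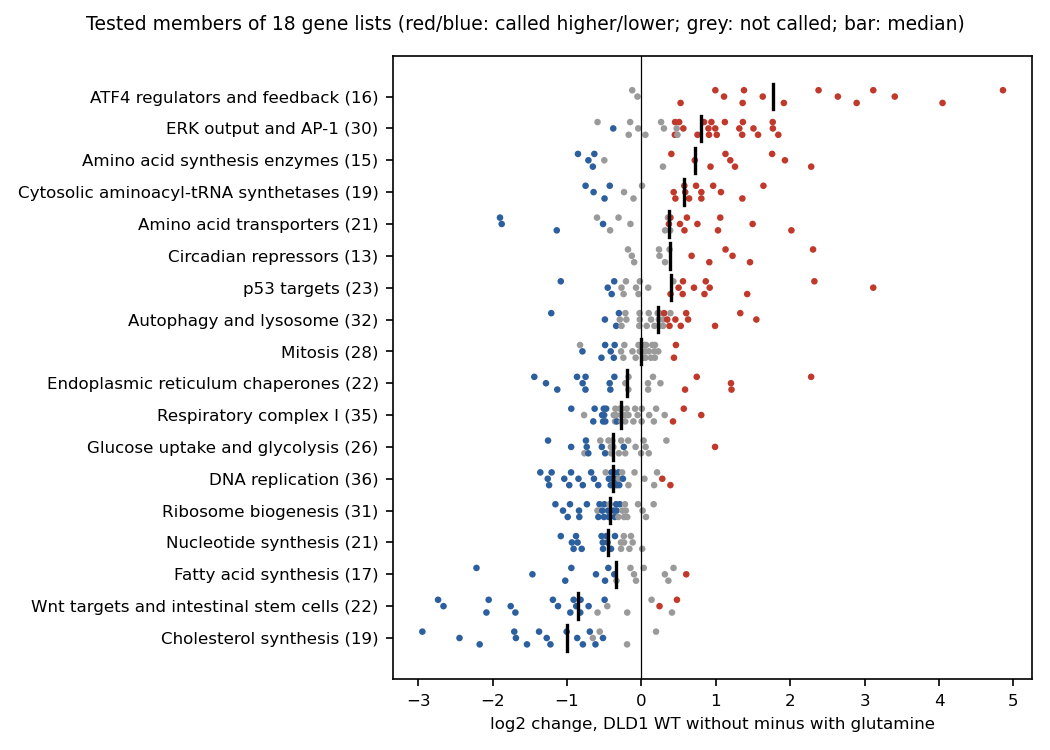
Log2 change of every tested member of 18 gene lists, without minus with glutamine in DLD1 WT; red and blue points rose and fell at an adjusted p under 0.05, grey points did not pass, bars are medians, and the number tested is in brackets. ATF4 regulators lie highest, with a median of 1.77, and cholesterol synthesis lowest, with a median of -1.0.

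Targets of Wnt signalling and genes of intestinal stem cells fell. This pathway keeps crypt stem cells dividing and is active in most colorectal carcinomas. Of 22 tested genes 15 fell and 2 rose, with a median of -0.85, and 1 rose with any 1 of the 4 arrays left out. LGR5, a stem cell receptor for R-spondins, read 303 and 329 with glutamine and 48.2 and 51.8 without (log2 change -2.66 ± 0.31, adjusted p = 0.000142). ASCL2, a transcription factor of crypt stem cells, read 99.1 and 70.5 with glutamine and 23.8 and 17.04 without (-2.05 ± 0.20), and AXIN2, a feedback inhibitor of the pathway, read 1314 and 1427 with glutamine and 407 and 404 without (-1.76 ± 0.21). The highest array without glutamine stayed below the lowest with it in all 3 genes. TNFRSF19 changed by -2.73 ± 0.35 and SOX4 by -0.91 ± 0.11. CD44 fell by 1.69 on its brightest probe set, while a dim second one changed by 0.41. MYC, a target of Wnt and of growth signals, read 535 and 530.0 with glutamine and 366 and 391 without (-0.49 ± 0.088), and SOX9 rose by 0.48 ± 0.089. Of 19 genes of colon epithelium 3 rose and 4 fell. CDX2, a transcription factor that defines the intestinal lineage, read 215 and 218 with glutamine and 90.4 and 97.9 without (-1.20 ± 0.10), KRT20 changed by -1.50 ± 0.24 and VIL1, villin, by -0.98 ± 0.17, whereas KLF5, a factor of crypt cells, rose by 0.84 ± 0.11. EPCAM changed by -0.15 ± 0.093 and CDH1, E-cadherin, by -0.05 ± 0.11, neither of which passed.

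TXNIP and ARRDC4, arrestin-domain genes that restrain glucose uptake and are known targets of the glucose-sensing factor MondoA, rose. TXNIP read 69.3 and 87.01 with glutamine and 769 and 751 without (log2 change 3.29 ± 0.25, adjusted p = 1.2e-05) and ARRDC4 read 72.3 and 68.5 with glutamine and 302 and 282 without (2.05 ± 0.12). Both were higher on each array without glutamine than on either array with it. ARRDC3 rose by 1.13 ± 0.10, and MXD1, a MAX partner that opposes MYC, by 1.32 ± 0.11 on its brightest probe set, while a dim second one changed by -0.26. Altogether 5 of 14 genes of this network rose and 2 fell, or 1 fell without the second array with glutamine or the first lacking it; MLXIP, the gene of MondoA, changed by -0.28 ± 0.12 and did not pass. Of 28 genes of FOXO and insulin signalling and growth factor receptors 9 rose and 4 fell, and 2 fell without the second array of either medium. IRS2, an adaptor of the insulin receptor, read 18.7 and 22.5 with glutamine and 79.7 and 70.9 without (1.87 ± 0.18). INSR, the receptor, rose by 0.91 ± 0.12 and EGFR by 0.93 ± 0.12. FOXO1 read 14.5 and 12.9 with glutamine and 31.7 and 23.98 without (1.01 ± 0.17, adjusted p = 0.00153), and FOXO3 did not pass (0.26 ± 0.29). KLF6 rose by 1.40 ± 0.15 and CCNG2, a FOXO target, by 1.29 ± 0.16. KIT, a receptor tyrosine kinase, read 584 and 768 with glutamine and 89.3 and 91.6 without (-2.89 ± 0.30, adjusted p = 7.49e-05), among the largest falls of all tested genes.

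Immediate-early and ERK output genes rose: 20 of 30 tested rose and 1 fell, with a median of 0.80, and none fell without the second array with glutamine or either lacking it. KLF10 read 278 and 268 with glutamine and 804 and 813 without (log2 change 1.57 ± 0.086, adjusted p = 1.88e-06), JUN read 114 and 126 with glutamine and 389.8 and 425 without (1.77 ± 0.10) and IER2 read 149 and 142 with glutamine and 368 and 382 without (1.36 ± 0.09). The phosphatase genes DUSP5 and DUSP1, which switch off MAP kinases, rose by 1.77 ± 0.13 and 1.84 ± 0.15. FOS, the partner of JUN in AP-1, changed by 0.05 ± 0.32 and did not pass. Of 13 clock genes 6 rose and none fell. BHLHE41, a repressor of the clock, read 7.17 and 8.20 with glutamine and 38.8 and 37.1 without (2.31 ± 0.15), PER1 rose by 1.46 ± 0.12, NR1D2 by 1.22 ± 0.11 and CRY1 by 0.91 ± 0.099.

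Genes of the endoplasmic reticulum list moved in both directions: 10 of 22 tested fell and 5 rose. CRELD2 read 54.5 and 58.7 with glutamine and 21.5 and 20.3 without (log2 change -1.44 ± 0.14) and PDIA4, a disulfide isomerase, read 553 and 642 with glutamine and 275 and 270.2 without (-1.13 ± 0.10). CALR, calreticulin, changed by -0.75 ± 0.079 and DNAJB11 by -0.79 ± 0.087. HSPA5, the chaperone BiP, read 2861 and 3309 with glutamine and 2296 and 2313 without (-0.42 ± 0.09, adjusted p = 0.00577), and missed the threshold without the second array with glutamine (adjusted p = 0.0507). In the other direction ERN1, the sensor IRE1-alpha, read 22.9 and 28.03 with glutamine and 128 and 118 without (2.28 ± 0.12) and XBP1, whose RNA it splices, read 329 and 348 with glutamine and 730.2 and 840.3 without (1.21 ± 0.10).

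Glycolysis, the tricarboxylic acid cycle, complex I and ribosome production leaned downwards. Of 26 glycolysis genes 8 fell and 1 rose, with GPI at 1696 and 1714 with glutamine and 747 and 684 without (log2 change -1.25 ± 0.12) and LDHB changing by -0.75 ± 0.081; PFKFB2, which makes an activator of phosphofructokinase, rose by 0.99 ± 0.16. Of 22 genes of the cycle and its side entries 10 fell and 3 rose; 1 rose without either array with glutamine or the first lacking it, and 2 without the second lacking it. IDH2, which interconverts isocitrate and oxoglutarate in mitochondria, read 286 and 283 with glutamine and 142 and 123 without (-1.11 ± 0.11), and IDH3G changed by -0.70 ± 0.082. Of 35 complex I genes 11 fell and 3 rose, or 1 rose without the second array with glutamine or the first lacking it; the count that fell was 5 to 7 with 1 array left out, from 6 without the first and 7 without the second array with glutamine to 5 and 7 without the first and second lacking it. NDUFS5 changed by -0.94 ± 0.14 and NDUFS4 by 0.81 ± 0.10. Ribosome biogenesis genes fell in 19 of 31 cases and none rose. LYAR read 303 and 312 with glutamine and 140.1 and 136 without (-1.16 ± 0.078, adjusted p = 5.54e-06), and NOP2, an rRNA methyltransferase, read 514 and 514 with glutamine and 275 and 244 without (-0.99 ± 0.096). BOP1, MRTO4 and NOP16 changed by -1.05 ± 0.11, -0.84 ± 0.086 and -0.96 ± 0.10.

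Of 32 genes of autophagy and the lysosome 10 rose and 4 fell. Without the first array with glutamine 6 rose, without the first lacking it 5 and without the second lacking it 6; 2 fell without the second array of either medium. NBR1, an autophagy receptor, read 224 and 216 with glutamine and 565 and 542 without (log2 change 1.33 ± 0.08, adjusted p = 3.09e-06). SQSTM1, the receptor p62, read 76.5 and 64.4 with glutamine and 142 and 137 without (0.99 ± 0.099), and MAP1LC3B, which coats the autophagosome, rose by 1.54 ± 0.16. GLA, a lysosomal galactosidase, changed by -1.21 ± 0.10. Of 25 NRF2 targets 7 rose and 6 fell, and 4 rose without the second array lacking glutamine; NFE2L2, the gene of NRF2, rose by 0.93 ± 0.11 and TKT, transketolase, changed by -0.82 ± 0.094. Of 23 p53 targets 11 rose and 4 fell, and 7 rose without the second array with glutamine and 6 without the first lacking it. GADD45A, a stress gene that ATF4 also regulates, read 321 and 300.0 with glutamine and 1511 and 1600 without (2.32 ± 0.089), and MDM2, the p53 ubiquitin ligase, changed by -0.45 ± 0.087. Among 18 genes of the BCL2 family and death receptors 7 rose and 2 fell. PMAIP1, the killer protein NOXA, read 165 and 169.5 with glutamine and 408 and 391 without (1.25 ± 0.093), TNFRSF10B, the receptor DR5, rose by 0.85 ± 0.086, MCL1, a survival factor, rose by 0.75 ± 0.11, and BID changed by -0.95 ± 0.10.

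Among surface and secreted immune factors single genes stood out rather than whole lists. ULBP1, a stress ligand for the NKG2D receptor of killer cells, read 49.1 and 36.3 with glutamine and 464 and 389 without (log2 change 3.33 ± 0.22, adjusted p = 4.88e-06), while 2 of 7 tested ligands rose and 1 fell, or none without the first array with glutamine or either lacking it. RELB and NFKB2, which form the non-canonical NF-kB dimer, rose by 1.71 ± 0.16 and 1.36 ± 0.14. CXCL5, a chemokine, changed by -1.55 ± 0.12. CXCL8 did not pass (-0.45 ± 0.18, adjusted p = 0.0957), and in all 4 of 15 genes of this list rose and 1 fell. Interferon-stimulated genes split evenly, 3 of 20 up and 3 down, with IRF7 at 1.25 ± 0.15 and IFI6 at -1.20 ± 0.11. Of 13 secreted stress factors 8 rose and 1 fell; 5 rose without the first array of either medium, and none fell without either array with glutamine. VEGFA read 26.1 and 22.97 with glutamine and 92.97 and 94.8 without (1.94 ± 0.11) and GDF15, a hormone that curbs appetite, read 1168 and 1099 with glutamine and 3052 and 3020 without (1.42 ± 0.087). Hypoxia genes outside glycolysis rose in 5 of 17 cases and fell in 4. Of 19 epithelial-mesenchymal genes 3 rose and 1 fell, or none fell without either array with glutamine or the first lacking it, and ESRP1, an epithelial splicing factor, read 63.1 and 52.8 with glutamine and 193 and 196 without (1.75 ± 0.11).

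Several of the largest changes lay outside the lists. SLC16A4, a member of the monocarboxylate transporter family, read 15.3 and 31.4 with glutamine and 236 and 231 without (log2 change 3.41 ± 0.31). LAMP3, a lysosomal membrane protein, read 29.3 and 31.7 with glutamine and 261 and 223 without (2.99 ± 0.16), and VLDLR, a lipoprotein receptor, read 8.38 and 10.3 with glutamine and 51.2 and 54.9 without (2.51 ± 0.21). Each rose without overlap between media. Among the falls SLAMF6 read 76.8 and 82.5 with glutamine and 5.88 and 5.87 without (-3.76 ± 0.30), RASSF10 read 40.4 and 45.9 with glutamine and 3.23 and 3.24 without (-3.73 ± 0.19), and CFTR, the chloride channel of secretory epithelia, read 251 and 314 with glutamine and 35.5 and 43.1 without (-2.84 ± 0.19). SLAMF6 and RASSF10 read under 6 on both arrays without glutamine, near the dimmest genes tested. CEMIP, which takes part in hyaluronan breakdown, read 75.4 and 110.5 with glutamine and 13.0 and 11.01 without (-2.93 ± 0.19). The small nuclear RNA genes RNU5E-4P and RNU12, with log2 changes of -3.01 ± 0.33 and -2.39 ± 0.22, belong to families with near-identical copies and are uncertain.

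The response was then set against that of DLD1 Mut, which shares no array with it and in which 33.6% of tested genes were called. Of the genes that rose in DLD1 WT, 1627 also rose in DLD1 Mut, 73.9% of those of WT and 61.7% of those of Mut, and 20 fell there; of those that fell 1522 also fell (74.9% and 57.8%), and 7 rose. The difference of the 2 changes was called for 129 genes (0.823%), 89 of them with the higher change in WT (0.568%) and 40 with the lower (0.255%). With any 1 of the 8 arrays left out 15 to 36 genes were called: 24 and 36 without the first and second array of WT with glutamine, 25 and 15 without those lacking it, 26 and 34 without the Mut arrays with glutamine, and 26 and 25 without those lacking it. The fit of the 8 DLD1 arrays alone, with fewer degrees of freedom, called 3.

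Of 15 amino acid synthesis genes 7 had a higher change in WT than in Mut and none a lower, with 2 to 5 when 1 array was left out; the 2 came without the second WT array lacking glutamine. For DDIT4, CHAC1, PHGDH and PSAT1 the call held with any 1 of the 8 arrays left out. DDIT4 read 179.7 and 247 with glutamine and 641 and 674 without in Mut, which gave a difference of changes of 2.40 ± 0.19 (adjusted p = 0.000777). CHAC1 read 290.3 and 299.8 with glutamine and 473 and 486 without in Mut (difference 1.94 ± 0.18, adjusted p = 0.00161). PHGDH read 391 and 385 with glutamine and 522 and 542 without (1.30 ± 0.13, adjusted p = 0.00358). In each of these genes the WT arrays with glutamine were the lowest of the 4 groups, and the mean levels without glutamine lay nearer to each other than those with it. PSAT1 read 2187 and 2352 with glutamine and 2285 and 2334 without in Mut (1.10 ± 0.12, adjusted p = 0.00562), where it did not pass the test of withdrawal (log2 change 0.03 ± 0.086). With glutamine the level in WT minus that in Mut was -2.73 ± 0.13 for DDIT4 (adjusted p = 1.09e-06), -1.83 ± 0.12 for CHAC1 (1.19e-05), -1.18 ± 0.093 for PHGDH (3.84e-05) and -0.78 ± 0.086 for PSAT1 (0.000473). Without glutamine the differences of level were smaller: -0.32 ± 0.13 (95% interval -0.62 to -0.03), 0.11 ± 0.12 (-0.17 to 0.38), 0.12 ± 0.093 (-0.08 to 0.33) and 0.32 ± 0.086 (0.13 to 0.51). The difference of PSAT1 passed the test in the full fit and was lost without any 1 of the 4 arrays lacking glutamine (adjusted p = 0.107 to 0.197), under quantile normalization (0.116), without the filter on dim genes (0.0755) and with the 8 DLD1 arrays alone (0.104). Across all genes, levels in WT and Mut differed at 910 with glutamine (5.81%), 502 higher in WT (3.2%) and 408 lower (2.6%), and at 1610 without it (10.3%), 927 higher (5.91%) and 683 lower (4.36%). Over the amino acid synthesis list 8 of 15 genes were lower in WT with glutamine and none without it, and 4 of 15 were higher in WT without glutamine. Without the second WT array or the first Mut array with glutamine 5 rather than 8 were lower, and 1 rather than 4 was higher without the second Mut array lacking glutamine and 2 without any of the other 3. ASNS read 139.6 and 125 with glutamine and 296 and 294 without in Mut (difference 1.12 ± 0.15, adjusted p = 0.0112), SLC7A11 read 386 and 419 with glutamine and 930.3 and 927 without (0.81 ± 0.15, adjusted p = 0.0412) and VLDLR read 33.8 and 41.01 with glutamine and 51.6 and 43.4 without (2.17 ± 0.30, adjusted p = 0.0136). The call for ASNS was lost without the first WT array with glutamine, the second WT array lacking it, the first Mut array with it or either Mut array lacking it (adjusted p = 0.0501, 0.0601, 0.0561, 0.0536 and 0.0571), and that for VLDLR without the first WT array with glutamine, either WT array lacking it or the second Mut array of either medium (0.058, 0.0592, 0.0666, 0.0595 and 0.0611). That for SLC7A11 was lost without any 1 of the 8 arrays (0.0652 to 0.136).

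**Figure D3:**
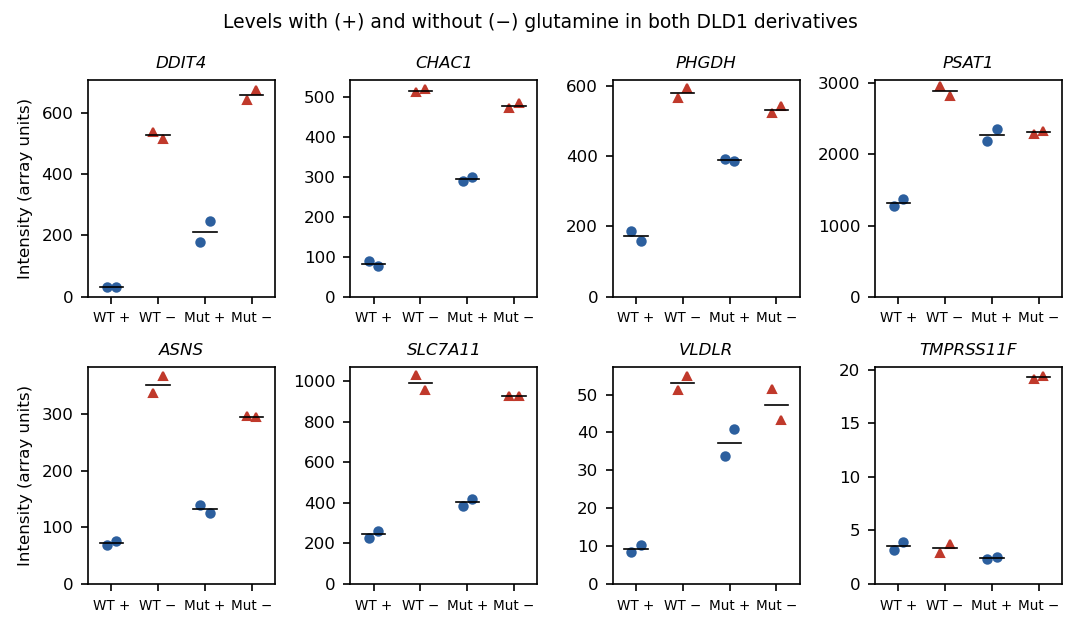
Intensity of 8 genes on the 8 DLD1 arrays, WT and Mut with (+, circles) and without (−, triangles) glutamine, with geometric means as lines and axes from 0. In 7 of the genes the WT arrays with glutamine are the lowest, and TMPRSS11F is high only in Mut without glutamine.

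Outside the lists, 3 more genes had a higher change in WT with any 1 array left out. EHD2, a caveolar ATPase, read 12.8 and 14.2 with glutamine and 26.9 and 27.8 without in WT and 6.93 and 4.34 with glutamine and 2.54 and 2.33 without in Mut (difference of changes 2.19 ± 0.25, adjusted p = 0.00585). On the Mut arrays without glutamine EHD2 read near the dimmest genes tested, so the size of its change there is uncertain. TFPI, an inhibitor of coagulation, had a difference of 1.53 ± 0.19 and L3MBTL4 of 1.51 ± 0.16. The rise of TMPRSS11F, a transmembrane serine protease gene, was seen in Mut and not in WT: it read 3.18 and 3.94 with glutamine and 2.92 and 3.76 without in WT and 2.29 and 2.51 with glutamine and 19.2 and 19.4 without in Mut (difference -3.10 ± 0.19, adjusted p = 0.00016). NRIP1, a nuclear receptor corepressor, read 114 and 138 with glutamine and 170.4 and 161 without in WT and 3.16 and 4.02 with glutamine and 19.1 and 22.3 without in Mut (-2.13 ± 0.19, adjusted p = 0.00161), and CPA4, a carboxypeptidase, had a difference of -1.42 ± 0.17. In Mut with glutamine TMPRSS11F and NRIP1 read near the dimmest genes tested, so the size of their rises there is uncertain. The differences of TMPRSS11F, NRIP1 and CPA4 held with any 1 of the 8 arrays left out. In the 8 DLD1 arrays alone those of CHAC1 and TMPRSS11F were called and those of the other genes named here were not. With a term for replicate number in each line and genotype, the difference of CHAC1 was not called (adjusted p = 0.101).

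**Figure D4:**
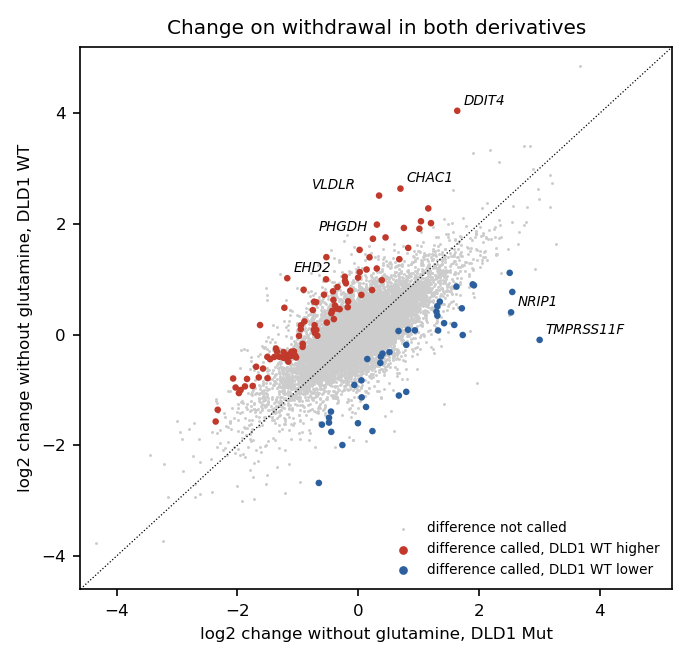
Log2 change on withdrawal of each of 15676 genes in DLD1 Mut (x axis) and DLD1 WT (y axis); the dotted line marks equal changes, and the 129 genes whose difference was called are coloured, 89 red (higher in WT) and 40 blue (lower). DDIT4 and CHAC1 lie above the line and TMPRSS11F and NRIP1 below it.

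Against HCT116 WT, which also keeps only a wild-type copy, the response differed at more genes than against DLD1 Mut. In HCT116 WT 20.3% of tested genes were called. Of the genes that rose in DLD1 WT 840 also rose in HCT116 WT (38.1% and 52.1% of the 2 lists) and 55 fell there; of those that fell 788 also fell (38.8% and 49.9%) and 72 rose. The difference of changes was called for 1576 genes (10.1%), 862 higher in DLD1 WT (5.5%) and 714 lower (4.55%), and for 893 to 1126 with 1 array left out; leaving out the first DLD1 array lacking glutamine gave 923, the second 893, the second DLD1 array with it 1001, and the HCT116 arrays with glutamine 989 and 980 and the first lacking it 1039. Replication genes fell less in DLD1 WT than in HCT116 WT: 27 of 36 had the higher change there and 1 the lower. Mitosis genes, which had no common direction in DLD1 WT, had the higher change there in 17 of 28 cases and the lower in none. With any 1 of the 8 arrays left out fewer genes of both lists had the higher change. The 1 lower replication gene was lost in most of these fits. Median changes of replication and mitosis genes were -0.38 and 0.00 in DLD1 WT, -0.87 and -0.31 in DLD1 Mut, and -1.25 and -0.72 in HCT116 WT. DSCC1 had a difference of 0.58 ± 0.12 (adjusted p = 0.0118), a call lost with the 8 WT arrays alone (0.0684). With DLD1 Mut 8 of 36 replication genes differed in the same direction, and 0 to 2 of them when 1 array was left out, with 2 only without the second Mut array with glutamine.

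**Figure D5:**
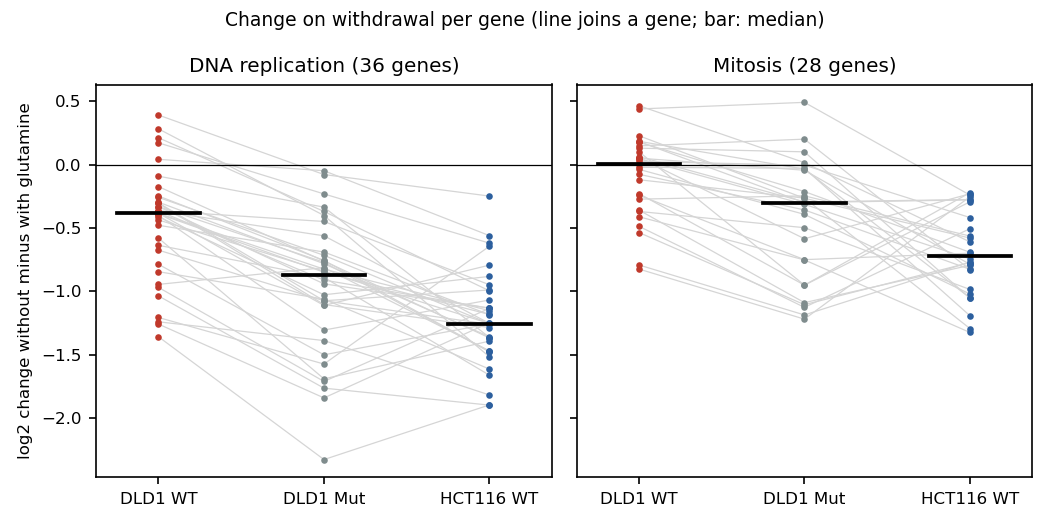
Log2 change on withdrawal of 36 replication genes and 28 mitosis genes in DLD1 WT, DLD1 Mut and HCT116 WT; grey lines join a gene and bars are medians. The medians of DLD1 WT are the nearest to 0 in both panels.

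Of the ATF4 regulators 7 of 16 had a higher change in DLD1 WT than in HCT116 WT and none a lower, and of the amino acid synthesis genes 9 of 15 a higher and 1 a lower, with 6 to 8 higher when 1 array was left out, 6 without the second DLD1 array lacking glutamine. With 1 array left out the 1 lower amino acid synthesis gene was lost in most fits. Wnt and stem cell genes had the lower change in 6 of 22 cases and none the higher, but 3 of the 6, LGR5, ASCL2 and TNFRSF19, read under 7 on every HCT116 WT array, where a fall could not be measured. Cholesterol genes fell in 15 of 19 cases in each line (10.1% of all tested genes fell in HCT116 WT). TXNIP read 6.25 and 6.54 with glutamine and 8.62 and 4.76 without in HCT116 WT (difference of changes 3.29 ± 0.35, adjusted p = 0.000742). VLDLR, which read 2.92 to 4.63 on all 4 HCT116 WT arrays, had a difference of 2.78 ± 0.30, and NOCT, a clock-controlled deadenylase-like enzyme, read 96.9 and 94.6 with glutamine and 407 and 399 without in DLD1 WT and 145 and 123 with glutamine and 112 and 119.9 without in HCT116 WT (2.28 ± 0.16, adjusted p = 0.000175). LGR5 read 4.38 and 3.27 with glutamine and 3.27 and 6.20 without in HCT116 WT and KIT read 5.08 and 3.39 with glutamine and 4.84 and 3.31 without, and CFTR, SLAMF6 and RASSF10 read under 4 on every HCT116 WT array. All 5 were so dim there that no fall could be measured, and the differences of changes fitted for LGR5 (-2.91 ± 0.44, adjusted p = 0.003) and KIT (-2.84 ± 0.43, adjusted p = 0.00302) do not show a different response. GEM, a small GTPase, moved in opposite directions, by -1.61 ± 0.14 in DLD1 WT and by 1.44 ± 0.14 in HCT116 WT (difference -3.05 ± 0.20, adjusted p = 0.000175).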

How the data were processed

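The deposited intensities of 53617 probe sets on 16 arrays, 2 biological replicates per group, were analysed here. Per the labels' protocols, total RNA was labelled with biotin by the Affymetrix whole-transcript protocol; how the authors normalized the deposited intensities is not given in the sources used here, and the arrays had near-equal distributions. Their log2 was taken with no pseudocount and no further normalization. Of the probe sets 23871 had exactly 1 symbol; the 29746 others, with several or none, entered no gene test. For 632 genes with several probe sets the one with the highest mean was used. By Entrez identifier 90 symbols were updated to GRCh38.p14, and 569 stayed as given.

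Group means of the 8 groups were fitted with limma 3.58.1 in R 4.3.3 (lmFit, eBayes; 8 residual and 2.49 prior degrees of freedom), and p was adjusted by the Benjamini-Hochberg method over 15676 genes; every adjusted p in the text comes from this test. The fit was tested on simulated data. With 2 arrays a group, the number of arrays limits precision. Promoter windows and start sites are RefSeq's. The samples compared and the gene lists were chosen with earlier results of these data known. Named were the 20 largest rises and falls, up to 5 called members per list in its main direction and 2 in the other, defining genes of glutamine metabolism and the lists, and the 12 largest differences of response in each direction; the text gives a part of these, and a few other members chosen after their values were seen. The alternatives changed the filter, normalization, pseudocount, probe sets, variance model, arrays in the fit and replicate block, and left out each array.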

Additional observations from a re-analysis of the deposited data

Results flagged for a closer look

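The response of DLD1 WT differed from that of DLD1 Mut at 129 genes and from that of HCT116 WT at 1576 genes by a test of the difference of log2 changes. Against DLD1 Mut the change was higher in WT for DDIT4 (2.40), EHD2 (2.19), VLDLR (2.17), CHAC1 (1.94), TFPI (1.53), L3MBTL4 (1.51), PHGDH (1.30), ASNS (1.12), PSAT1 (1.10) and SLC7A11 (0.81). It was lower in WT for TMPRSS11F (-3.10), NRIP1 (-2.13) and CPA4 (-1.42). The calls for ASNS, VLDLR and SLC7A11 depended on single arrays, as given above. Among these genes the difference from DLD1 Mut was called with the 8 DLD1 arrays alone for CHAC1 and TMPRSS11F only. That of CHAC1 was lost with a replicate block within each line and genotype (adjusted p = 0.101). EHD2 read near the dimmest genes tested on the Mut arrays without glutamine. Against HCT116 WT the change was higher in DLD1 WT for TXNIP (3.29), VLDLR (2.78), NOCT (2.28) and DSCC1 (0.58), and lower for GEM (-3.05), LGR5 (-2.91) and KIT (-2.84). LGR5 and KIT were so dim on the HCT116 WT arrays that no fall could be measured there, so their values do not show a different response. The call for DSCC1 was lost with the 8 WT arrays alone.

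Of 13229 probe sets with no symbol or several, as bright as the tested genes, 761 changed on withdrawal in DLD1 WT (5.75%): 357 rose and 404 fell.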

How the results depend on the processing

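The count of genes that changed in DLD1 WT was 2916 to 3152 with 1 array left out, 2524 with the 4 DLD1 WT arrays alone and 899 with a 2-fold minimum, against 4235. The count of genes that differed from DLD1 Mut, 129, was 46 without a filter on dim genes, 328 with genes above the median level, 691 with log2 of the value plus 16, 602 with a trended and robust variance, 3 with the 8 DLD1 arrays alone and 15 to 36 with 1 array left out. The count that differed from HCT116 WT, 1576, was 2522 with 16 added, 753 with the 8 WT arrays alone and 893 to 1126 with 1 array left out. WT and Mut levels with glutamine differed at 910 genes, and at 1438 with 16 added, 1379 with trended and robust variance, 599 with the 8 DLD1 arrays alone and 459 to 609 with 1 array left out; without glutamine they differed at 1610, and at 709 to 849 with 1 array left out. The alternatives for these levels were chosen after seeing the data. The causes of these shifts were not tested. Fits of fewer arrays also have fewer degrees of freedom, and the part of this in the shifts was not tested either.

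The titles give replicate numbers and do not say whether same-numbered cultures were run together. Deviations of same-numbered arrays correlated little across genes, at -0.0199 in DLD1 WT, 0.0204 in DLD1 Mut and 0.0134 in HCT116 WT. That cannot settle whether the cultures were paired. With a replicate block over all arrays 4091 genes changed in DLD1 WT and 76 differed from DLD1 Mut. With a replicate block within each line and genotype 3443 changed, 3 differed from DLD1 Mut and 717 from HCT116 WT. In that fit 209 and 320 genes differed in level between WT and Mut with and without glutamine. As each derivative then has its own replicate term, these levels are not the group means compared in the full fit. For PSAT1 without glutamine the level difference was 0.35, against 0.32 with the block over all arrays. The 209 and 320 genes therefore cannot be set against the counts of the full fit.

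For 189 values of named genes no alternative reversed a direction in a call, and 2799 of 2879 values stayed on the same side of the threshold; 77 lost the call and 3 gained it, all 3 for GLUD1. These genes were named largely for a large change or a small adjusted p in the same data. That choice favours values that stay on their side of the threshold. Quantile normalization moved the median change of all genes from 0.011 to -0.001. Intensities near the dimmest genes tested limit what falls such as those of SLAMF6 and RASSF10 can show.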
